A study of Mus musculus with 9 samples.

Results

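The 37 genes described here encode antioxidant and glutathione enzymes, with the transcription factor NRF2 (Nfe2l2) and its inhibitor KEAP1. They were taken by symbol from a list, and all 37 of 37 were found among the 24054 genes of the deposited files. The libraries are bulk RNA-seq of splenic CD11b+ dendritic cells (DC2) from C57BL/6 mice, in 3 groups of 3 libraries. Young TOM+ cDC2 and young TOM- DC2 were sorted from mice 8 days after birth, and adult TOM+ cDC2 from mice of 9 weeks (1 library) or 8 weeks (the others). Every mouse, adults included, was homozygous for Cre at Clec9a and for a tdTomato reporter at Rosa, so each library carries both modifications. TOMATO marks a cell that has, or whose precursors had, Cre activity from the Clec9a locus, which in the study stands for descent from dendritic cell progenitors, and a TOM- cell is 1 without that mark. The gate was live, single, autofluorescence-negative, with MHCII, CD11c and CD11b positive. Spleens of young mice were pooled, and no group of adult TOM- cells was analysed here, so that in the comparison of young TOM- DC2 with adults age and TOMATO differ together.

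Cells dispose of hydrogen peroxide and lipid peroxides through a pair of thiol systems. In the first, glutathione is made from its amino acids by the glutamate-cysteine ligase (Gclc, Gclm) and glutathione synthetase (Gss), is used by glutathione peroxidases and transferases, and is returned to its reduced form by glutathione reductase (Gsr). In the second, peroxiredoxins reduce peroxides and are recharged by thioredoxins and thioredoxin reductases, and both systems draw on NADPH. Superoxide dismutases turn superoxide into peroxide, catalase breaks peroxide down, and heme oxygenases degrade heme. NRF2 binds the antioxidant response element (ARE) in front of many of these genes, and KEAP1 holds it back in unstressed cells.

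Of the 14 conventional DC2 markers, all were detected, and their summed level was 62003.9 to 66207.9 TPM (transcript abundance per length, scaled to a fixed total per library) in young TOM+, 59041.0 to 63862.8 in young TOM- and 93069.5 to 96358.8 in adult libraries. Cd74 and H2-Ab1 made up most of this sum, with means of 44852 and 16830 TPM in young TOM+ libraries. Against adults, 3 of the 14 markers were higher in each young group (Itgam, Sirpa, Clec10a) and 9 lower. Clec10a had means of 43.2, 53.7 and 11.7 TPM in the same order of groups, and Esam 19.0, 28.4 and 80.0 TPM. Of all genes tested, 21.0% were higher and 19.5% lower for TOM+, and 19.4% and 16.9% for TOM-. Replicate 1 of the young TOM- group stood apart from the others. Its erythroid markers summed to 1177.1 TPM, with the other young libraries at 53.0 to 120.7 and adults at 1.4 to 13.6. Most of that sum was RSEM's TPM of the near-identical hemoglobin genes Hba-a1 (443.65), Hba-a2 (473.24), Hbb-bs (191.69) and Hbb-bt (56.65), whose STAR counts were 0 in every library. Its neutrophil markers summed to 38.1 TPM against 0.3 to 1.8 elsewhere. ILC3 markers summed to 30.2 to 38.2 TPM in young TOM- libraries, 3.3 to 4.2 in young TOM+ and 3.7 to 5.5 in adults, with Il22 and Il17a at 0 everywhere. Proliferation genes summed to 1453.5 to 1486.0, 1340.6 to 1369.5 and 645.1 to 764.3 TPM, and 9 of 10 of them were higher in each young group than in adults. What part these cells or cell states have in the differences below was not tested, and in bulk samples fewer cells of a type and less RNA per cell cannot be told apart. Reads on genes numbered 12783252 to 22809401 per library (median 16128082).

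To show the sequences in front of the genes that were higher in young cells, the RefSeq promoter table (GRCm38.p6) was searched for the ARE core, TGACNNNGC, or GCNNNGTCA when read on the other strand. The search covered the 250 bases before each annotated start. The core was in 7 of 42 windows of the listed genes (16.7%) and in 3338 of all 32851 windows (10.2%). The 7 genes were Gclm, Prdx1, Txnrd1, Sod1, Nfe2l2, Gstm5 and Mgst1. No window was at hand for Gclc, Gsr, Gstt2, Hmox1 and Prdx6. Of the 12 genes that were higher in both young groups than in adults, 9 had a window. For 3 of these a window held no exon of the GENCODE annotation, a choice made after the values were seen. Those 3 are printed from 5′ to 3′ on the strand of the gene, for Gclm without the 70 bases that lie past the first RefSeq start, and any ARE core is in capitals. They are Mgst3 (chr1:167393842-167394091, minus strand), Gclm (chr3:122245307-122245486, plus strand) and Txn1 (chr4:57956412-57956661, minus strand).
Mgst3: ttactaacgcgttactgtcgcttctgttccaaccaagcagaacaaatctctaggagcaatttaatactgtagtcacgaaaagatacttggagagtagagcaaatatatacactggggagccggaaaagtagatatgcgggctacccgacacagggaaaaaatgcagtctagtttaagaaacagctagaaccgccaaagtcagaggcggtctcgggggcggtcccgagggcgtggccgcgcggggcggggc
Gclm: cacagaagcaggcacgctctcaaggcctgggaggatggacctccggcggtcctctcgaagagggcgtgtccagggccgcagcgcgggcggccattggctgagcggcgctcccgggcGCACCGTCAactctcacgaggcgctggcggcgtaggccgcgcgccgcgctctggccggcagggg
Txn1: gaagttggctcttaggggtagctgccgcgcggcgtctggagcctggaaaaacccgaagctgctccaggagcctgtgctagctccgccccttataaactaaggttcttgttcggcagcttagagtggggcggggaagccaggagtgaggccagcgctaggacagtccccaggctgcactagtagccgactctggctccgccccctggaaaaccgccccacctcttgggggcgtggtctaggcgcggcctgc

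For Prdx1, the other gene of these 12 with a core, the 29 bases around it are shown (chr4:116685456-116685484, plus strand), again with the core in capitals.
Prdx1: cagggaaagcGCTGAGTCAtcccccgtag

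The core began 134 bases before the promoter start used for Gclm and 133 bases before that for Prdx1. For Gclm that start lies 70 bases past the first RefSeq start. Prdx4, Mgst3 and, for TOM- alone, Mgst2 differed over 2-fold between young cells and adults, and their windows held none. Whether NRF2 binds either stretch in these cells was not measured.

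The listed genes together made up 0.736% to 0.748% of all TPM in young TOM+ cDC2, 0.745% to 0.768% in young TOM- DC2 and 0.609% to 0.654% in adult TOM+ cDC2. Gpx1, the main cytosolic glutathione peroxidase, alone gave 38.7% to 45.7% of this sum. TPM is scaled per transcript length, so that levels can be set side by side between genes. By their mean over all 9 libraries, the order was Gpx1 (2958 TPM), Prdx1 (667 TPM), Prdx6 (426 TPM), Nfe2l2 (319 TPM), Gsto1 (314 TPM) and Gstp1 (271 TPM). The order of Nfe2l2 and Gsto1 lies within the spread of their libraries. In every library 13 genes stood above 100 TPM, and 5 averaged under 1 TPM, namely Gpx3, Gstm5, Nqo1, Gpx7 and Mgst1. The most abundant genes were peroxidases, peroxiredoxins, NRF2 and transferases, and the quinone reductase Nqo1, a common NRF2 target, was near the limit of detection.

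**Figure D1:**
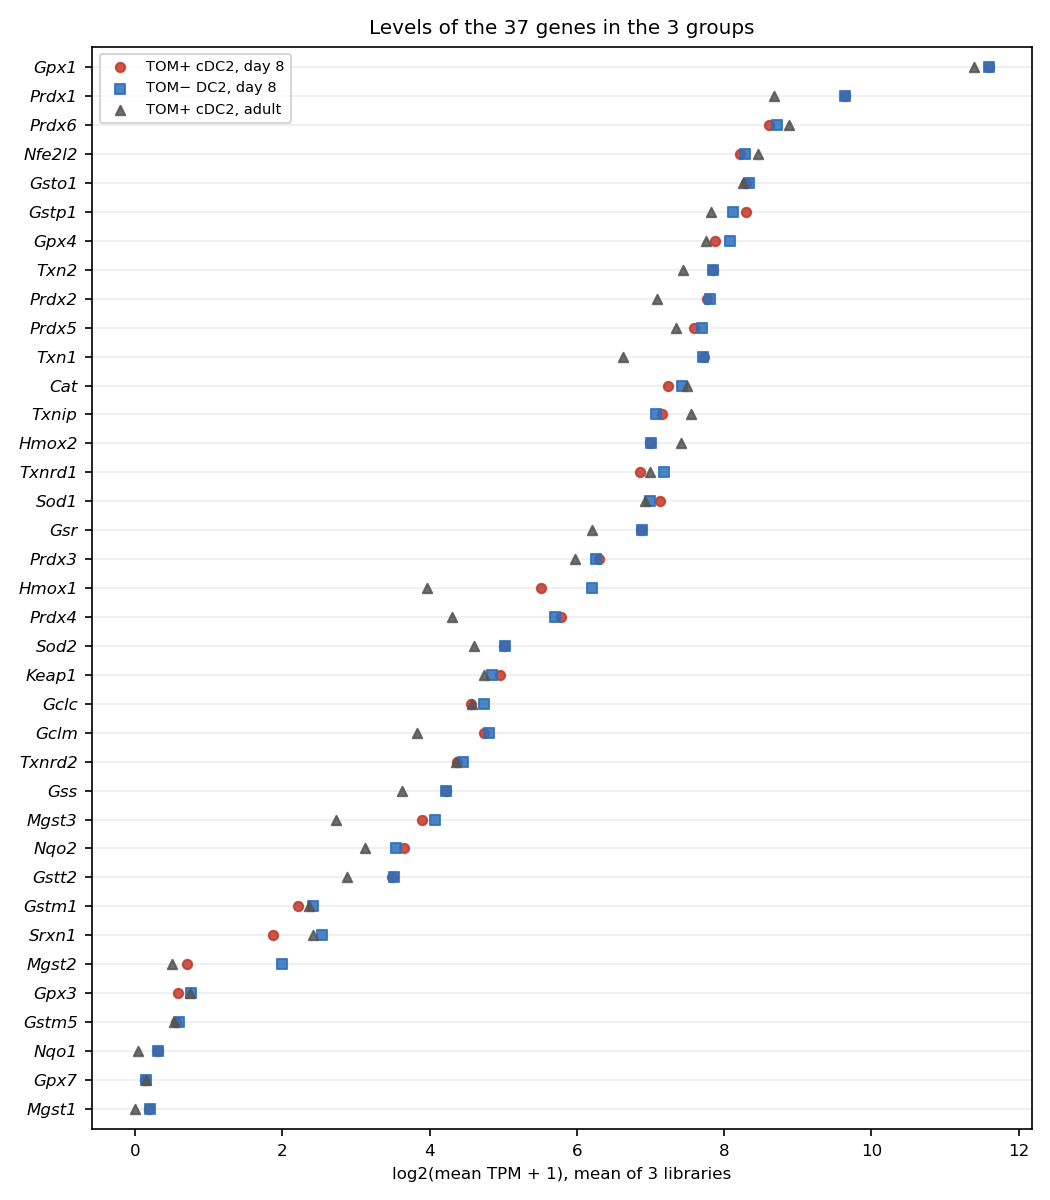
Level of each of the 37 genes as log2(mean TPM + 1) over the 3 libraries of a group, with red circles for young TOM+ cDC2, blue squares for young TOM- DC2 and grey triangles for adult TOM+ cDC2. Gpx1 lies far above the rest, and adult triangles lie to the left of both young groups for genes such as Prdx1, Txn1, Gclm, Mgst3 and Hmox1 and to the right for Hmox2 and Txnip.

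The first question was which of these genes differ with age within TOM+ cDC2. Differences are log2 fold changes (log2FC) ± standard error from edgeR's quasi-likelihood test on read counts, and a gene passed at a Benjamini-Hochberg adjusted p (padj) under 0.05 over the 14452 genes tested. Of the 37 genes, 14 were higher in young than in adult TOM+ cDC2, beside 21.0% of all genes tested, and 3 were lower, beside 19.5%. The higher genes were Prdx1, Prdx2, Prdx4, Txn1, Txn2, Gclm, Gss, Gsr, Gstp1, Gstt2, Mgst3, Hmox1, Nqo2 and Sod2. The lower genes were Prdx6, Hmox2 and Cat. A difference over 2-fold was reached by 3 genes upward (Prdx4, Mgst3, Hmox1), beside 5.96% of all genes, and by 0 downward, beside 6.86%. The median log2FC was 0.17 over the listed genes and 0.05 over all genes. Scaling by library size alone moves the median of all genes to 0.25 and the split of the listed genes to 18 higher (with Gpx1, Prdx3, Prdx5 and Keap1 added) and 1 lower.

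Young TOM- DC2 were compared with the same adult libraries, so that these values are not independent of the ones above. In this comparison 13 of the 37 genes were higher, beside 19.4% of all genes tested, and 3 were lower, beside 16.9%. Over 2-fold, 4 were higher (Prdx4, Mgst2, Mgst3, Hmox1), beside 6.50% of all genes, and 0 lower, beside 4.78%. Gstp1 and Nqo2 did not pass here and Mgst2 did, while on the lower side Txnip stood in place of Cat. The median log2FC was 0.16 over the listed genes and 0.07 over all genes. Scaling by library size alone gives 0.29 for all genes and a split of 21 higher (with Gpx1, Gpx4, Prdx3, Prdx5, Gclc, Gstp1, Nqo2 and Keap1 added) and 1 lower. The number of genes that passed with the same sign beside both young groups was 14, of 19 that passed in either.

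**Figure D2:**
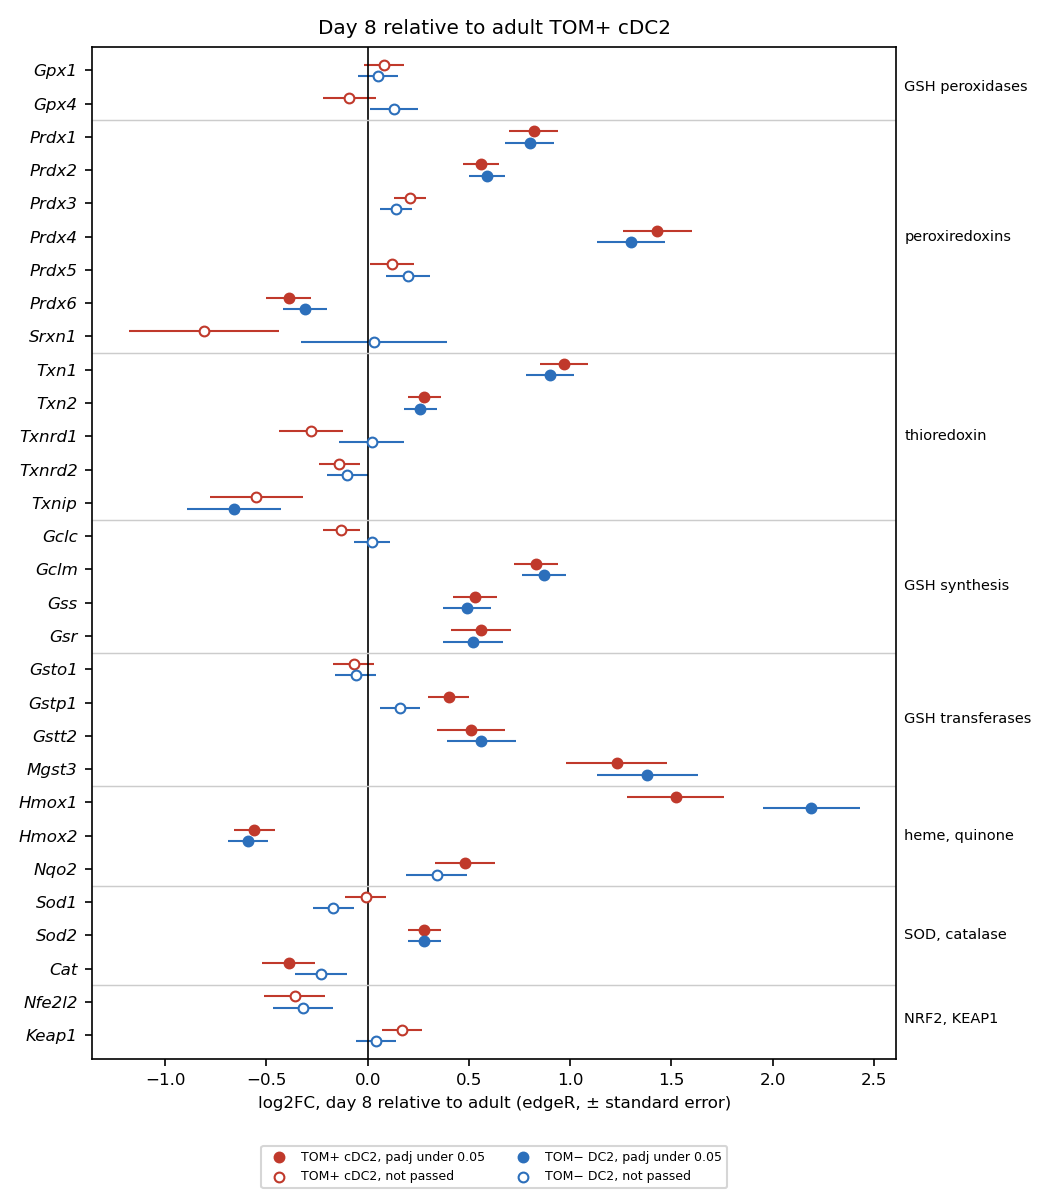
log2FC ± standard error of young against adult TOM+ cDC2 for the 30 listed genes averaging 50 or more reads, ordered by role, in red for young TOM+ cDC2 and in blue for young TOM- DC2, with filled points where padj was under 0.05. Hmox1, Prdx4 and Mgst3 lie farthest to the right, and Hmox2 lies left of 0 in both comparisons.

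None of the 4 glutathione peroxidases passed in any comparison. Gpx1 (chr9:108339080-108340342) was at 3109.8, 3120.4 and 3035 TPM in young TOM+ cDC2, at 3057, 3128 and 3124 TPM in young TOM- DC2, and at 2610.3, 2986 and 2448 TPM in adults. Every adult library was below every young library in TPM, yet the log2FC was 0.08 ± 0.10 (padj = 0.57) for TOM+ and 0.05 ± 0.10 (padj = 0.70) for TOM- against adults. TPM are not corrected for library composition, and with library size as the only scaling both comparisons passed (log2FC 0.28 and 0.27, padj = 0.02 each). Gpx4, which reduces lipid peroxides in membranes, ranged from 212 to 248 TPM in young TOM+, 242 to 295 TPM in young TOM- and 211 to 220 TPM in adult libraries, and its log2FC was -0.09 ± 0.13 (padj = 0.60) and 0.13 ± 0.12 (padj = 0.42). The first of these signs turned with other scalings. STAR counted only 0.20 of the reads that RSEM assigned to Gpx4. Gpx3, a secreted peroxidase, had 5 to 15 reads per library, and Gpx7, a peroxidase of the endoplasmic reticulum, had at most 4.

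Of the 6 peroxiredoxins and sulfiredoxin, 7 genes in all, 3 were higher and 1 lower beside either young group. Shares over all genes tested were 21.0% and 19.5% for TOM+, and 19.4% and 16.9% for TOM-. Prdx4 (chrX:155323918-155342272), the peroxiredoxin of the endoplasmic reticulum, was at 50.5, 55.1 and 57.4 TPM in young TOM+, 46.7, 54.6 and 52.7 TPM in young TOM- and 17.7, 14.1 and 24.4 TPM in adult libraries. All adult values were below all young values, and the log2FC was 1.43 ± 0.17 (padj = 3.6e-05) for TOM+ and 1.30 ± 0.17 (padj = 8.6e-05) for TOM-. Prdx1 (chr4:116685599-116700000), an abundant cytosolic peroxiredoxin, was at 739, 855 and 795 TPM, at 735, 888 and 766 TPM, and at 385, 400.2 and 437 TPM in the same order of groups. Its adult mean of 407 ± 26.6 TPM (SD, n = 3) lay below the young means, 796 ± 58.0 and 796 ± 81.2 TPM. The log2FC of Prdx1 was 0.82 ± 0.12 (padj = 1.7e-04) and 0.80 ± 0.12 (padj = 2.6e-04), and RSEM's counts, which share out reads with matching copies, gave 0.81 and 0.78 although STAR counted 0.48 of them. Prdx2 (chr8:84969622-84974811), another cytosolic peroxiredoxin, had means of 216 ± 15.0, 223 ± 2.22 and 135 ± 0.539 TPM, with a log2FC of 0.56 ± 0.09 (padj = 5.5e-04) and 0.59 ± 0.09 (padj = 4.5e-04).

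Prdx6 (chr1:161240112-161251210), which uses glutathione in place of thioredoxin, went the other way. It was at 379, 369.8 and 420.1 TPM in young TOM+, 398, 414 and 445 TPM in young TOM- and 406, 445 and 555 TPM in adult libraries, so that the groups overlapped. Its log2FC was -0.39 ± 0.11 (padj = 0.017) and -0.31 ± 0.11 (padj = 0.048). For TOM+, the call was lost with scaling by library size alone (padj = 0.18), in limma on log2(TPM + 1) (padj = 0.095) and log2(TPM + 0.1) (padj = 0.093), and without TOM+ replicate 1 (padj = 0.055), TOM+ replicate 2 (padj = 0.056) or adult replicate 3 (padj = 0.069). For TOM-, the call was lost with library size alone (padj = 0.51), in limma at either pseudocount (padj = 0.31), with the replicate block on all 9 libraries (padj = 0.059) and with 5 left-out libraries, namely TOM+ replicate 2 (padj = 0.064), TOM- replicates 1 (padj = 0.15) and 2 (padj = 0.09) and adult replicates 2 (padj = 0.077) and 3 (padj = 0.18).

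Mitochondrial Prdx3 was at 76.7 to 78.7, 71.4 to 78.6 and 57.5 to 64.8 TPM, without overlap between young and adult. It did not pass for TOM+ (log2FC 0.21 ± 0.08, padj = 0.059) or TOM- (0.14 ± 0.08, padj = 0.20). When the young libraries were paired by the number they carry, the value for TOM+ passed with padj = 0.036. Prdx5, found in several compartments, had a log2FC of 0.12 ± 0.11 (padj = 0.44) and 0.20 ± 0.11 (padj = 0.18). Srxn1, the sulfiredoxin that repairs overoxidized peroxiredoxins, was at 2.15, 3.03 and 2.83 TPM in young TOM+, 3.9, 5.74 and 4.83 TPM in young TOM- and 3.98, 6.98 and 2.07 TPM in adults. The adult libraries alone spanned the whole range of this gene, and its log2FC of -0.81 ± 0.37 (padj = 0.10) for TOM+ passed without adult replicate 3 (padj = 0.0089).

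In the thioredoxin system, Txn1 and Txn2 were higher in both young groups and the reductases did not pass. Txn1 (chr4:57943373-57956411), the cytosolic thioredoxin, was at 195.4, 226.9 and 208.8 TPM in young TOM+, 192.6, 225.2 and 206.9 TPM in young TOM- and 106.2, 92.8 and 95.2 TPM in adult libraries. The young groups overlapped each other fully and lay far above the adults, with a log2FC of 0.97 ± 0.12 (padj = 3.8e-05) and 0.90 ± 0.12 (padj = 8.2e-05). Txn2 (chr15:77915051-77928994), its mitochondrial counterpart, was at 233.7, 226.3 and 228 TPM, 224.8, 232.9 and 232.1 TPM, and 174, 172 and 171 TPM. The spread within each group was small, and the log2FC was 0.28 ± 0.08 (padj = 0.013) and 0.26 ± 0.08 (padj = 0.024). For TOM+ the call was lost without TOM+ replicate 3 (padj = 0.058). For TOM- it was lost in the fit of those 2 groups alone (padj = 0.065) and without TOM+ replicate 3 (padj = 0.053), TOM- replicate 2 (padj = 0.084) or 3 (padj = 0.10), or adult replicate 3 (padj = 0.063).

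Txnip, which binds and inhibits thioredoxin, varied more within the young groups than any other abundant member of this system. It was at 200.9, 106.6 and 115.3 TPM in young TOM+ cDC2, 191.1, 96.5 and 112.7 TPM in young TOM- DC2 and 191.6, 176.7 and 191.0 TPM in adults. The high young library in each group was replicate 1, and both of these carry the same number in their deposited names. The log2FC was -0.55 ± 0.23 (padj = 0.07) for TOM+ and -0.66 ± 0.23 (padj = 0.039) for TOM-. With the young libraries paired by number, the values were -0.60 (padj = 1.2e-05) and -0.70 (padj = 3.8e-06). Without TOM+ replicate 1 the value for TOM+ was -0.84 (padj = 0.0051), and it also passed without TOM- replicate 1 (padj = 0.019), with no filter on low counts (padj = 0.037) and in the fit of those 2 groups alone (padj = 0.03). For TOM-, leaving out TOM- replicate 2 (padj = 0.15) or 3 (padj = 0.12), or adult replicate 1 (padj = 0.097), 2 (padj = 0.075) or 3 (padj = 0.081) ended the call, as did DESeq2 (padj = 0.077), scaling by library size alone (padj = 0.16) and limma at either pseudocount (padj = 0.15).

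The thioredoxin reductase Txnrd1 was at 96.8 to 131 TPM in young TOM+, 122 to 165 TPM in young TOM- and 108 to 153.5 TPM in adult libraries. Its log2FC was -0.28 ± 0.16 (padj = 0.20) for TOM+ and 0.02 ± 0.16 (padj = 0.93) for TOM-, and the paired fit gave padj = 0.026 for TOM+. The mitochondrial reductase Txnrd2 stood between 18.2 and 21.6 TPM in all libraries, with padj of 0.27 and 0.47.

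Of the 4 genes that make and regenerate glutathione, Gclm, Gss and Gsr were higher in both young groups and Gclc was not. The share of higher genes over all genes tested was 21.0% for TOM+ and 19.4% for TOM-. Gclm (chr3:122245487-122267215), the modifier subunit of glutamate-cysteine ligase whose promoter is printed above, was at 25.4, 26.8 and 24.7 TPM in young TOM+, 28.0, 29.4 and 23.6 TPM in young TOM- and 13.4, 12.3 and 13.9 TPM in adult libraries. Both young groups lay above the adults and overlapped each other, and the log2FC was 0.83 ± 0.11 (padj = 9.9e-05) and 0.87 ± 0.11 (padj = 8.5e-05). Gclc, the catalytic subunit of the same enzyme, was at 20.9 to 24.5, 24.9 to 27.1 and 21.2 to 24.7 TPM, with a log2FC of -0.13 ± 0.09 (padj = 0.27) and 0.02 ± 0.09 (padj = 0.91). The 2 subunits thus stood at similar levels in young cells, while in adults the modifier subunit was lower in TPM than the catalytic subunit in every library.

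Gss (chr2:155563181-155592810), which adds glycine in the last step, had means of 17.7 ± 2.03, 17.7 ± 1.21 and 11.4 ± 0.291 TPM, with a log2FC of 0.53 ± 0.11 (padj = 0.0028) and 0.49 ± 0.12 (padj = 0.0054). Gsr (chr8:33653238-33698162), which reduces oxidized glutathione, was at 110.8, 117.3 and 121.2 TPM, 119.3, 119.2 and 111.6 TPM, and 53.5, 91.9 and 73.7 TPM. The adult libraries varied widely but all lay below the young ones, and the log2FC was 0.56 ± 0.15 (padj = 0.012) and 0.52 ± 0.15 (padj = 0.019). For TOM- the call was lost without TOM- replicate 2 (padj = 0.063), adult replicate 1 (padj = 0.057) or adult replicate 3 (padj = 0.055).

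**Figure D3:**
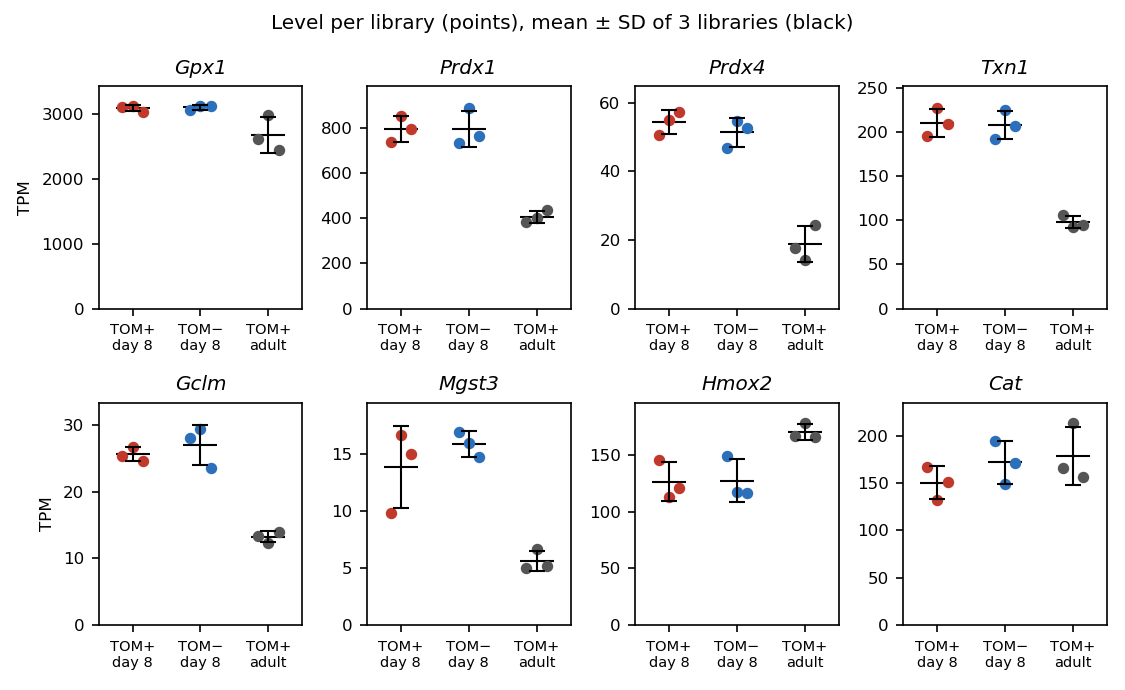
TPM of 8 listed genes in each library (points), with the mean ± SD of 3 libraries in black and every axis starting at 0. Prdx1, Prdx4, Txn1, Gclm and Mgst3 show both young groups above the adults without overlap, Hmox2 shows the adults above both young groups, and the groups overlap for Cat.

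Glutathione transferases couple glutathione to other molecules, and 3 of 8 were higher beside each young group and 0 lower. Over all genes tested, 21.0% were higher and 19.5% lower for TOM+, and 19.4% and 16.9% for TOM-. Mgst3 (chr1:167371966-167393841), a microsomal transferase with peroxidase activity, was at 9.84, 16.7 and 15.0 TPM in young TOM+, 17.0, 15.9 and 14.7 TPM in young TOM- and 5.04, 6.67 and 5.15 TPM in adult libraries. Both young groups lay above the adults, with a log2FC of 1.23 ± 0.25 (padj = 0.0021) and 1.38 ± 0.25 (padj = 0.0011). Mgst2 (chr3:51636912-51682675), a related enzyme that can make leukotriene C4, did not overlap in TPM between the young groups but did not pass there (padj = 0.16). It was at 0.33, 1.11 and 0.46 TPM in young TOM+, 3.11, 2.53 and 3.36 TPM in young TOM- and 0.25, 0.25 and 0.77 TPM in adult libraries, which rests on 2, 9 and 4 reads, 17, 14 and 30 reads, and 2, 1 and 4 reads. Only young TOM- DC2 passed against adults, with a log2FC of 2.55 ± 0.65 (padj = 0.0085), and the value for young TOM+ was 0.58 ± 0.73 (padj = 0.57). Mgst1 had 3 reads or fewer in each library and is given no fold.

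Gstp1 (chr19:4035411-4037912), a cytosolic transferase, was at 302.6, 326.1 and 307.8 TPM in young TOM+, 283.6, 281.9 and 266.6 TPM in young TOM- and 231.5, 221.6 and 220.0 TPM in adult libraries. The 3 groups did not overlap in TPM and young TOM- lay between the others. It passed for TOM+ (log2FC 0.40 ± 0.10, padj = 0.0064) and not for TOM- (0.16 ± 0.10, padj = 0.22). STAR counted 0.30 of the reads that RSEM gave this gene, and RSEM's counts gave a log2FC of 0.32 (padj = 0.0084) and 0.11 (padj = 0.30). Gstt2 (chr10:75831842-75837419) ranged from 8.88 to 11.3, 9.25 to 11.4 and 6.02 to 6.93 TPM, with a log2FC of 0.51 ± 0.17 (padj = 0.027) and 0.56 ± 0.17 (padj = 0.020). For TOM+ its call was lost without TOM+ replicate 1 (padj = 0.063) or 2 (padj = 0.10) or adult replicate 1 (padj = 0.076) or 2 (padj = 0.068). For TOM- the libraries that ended it were TOM- replicates 2 (padj = 0.059) and 3 (padj = 0.097) and adult replicates 1 (padj = 0.06) and 2 (padj = 0.054).

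Gsto1, the most abundant transferase, was at 332.3, 291.9 and 320.6 TPM, 336.3, 321.1 and 312.3 TPM, and 277.9, 264.9 and 368.1 TPM, with overlap of all groups. Its log2FC was -0.07 ± 0.10 (padj = 0.61) and -0.06 ± 0.10 (padj = 0.66), and the sign depended on the scaling. Gstm1 stood at 3.01 to 5.85 TPM and did not pass, with STAR at 0.67 of RSEM's reads. Gstm5 had at most 7 reads in a library.

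Hmox1 and Hmox2, the inducible and the constitutive heme oxygenase, moved in opposite directions. Hmox1 (chr8:75093618-75100593) was at 39.1, 56.1 and 39.4 TPM in young TOM+, 70.8, 80.4 and 67.1 TPM in young TOM- and 17.3, 17.5 and 9.07 TPM in adult libraries. All 3 groups were apart, with the highest level in young TOM- DC2. Its log2FC against adults was 1.52 ± 0.24 (padj = 3.5e-04) for TOM+ and 2.19 ± 0.24 (padj = 3.0e-05) for TOM-, the latter the largest among listed genes averaging 50 or more reads. Hmox2 (chr16:4726361-4766742) was at 145.8, 112.7 and 120.8 TPM, 148.8, 116.9 and 116.1 TPM, and 166.2, 178.1 and 165.3 TPM. Every adult value lay above every young value, and the log2FC was -0.56 ± 0.10 (padj = 6.1e-04) and -0.59 ± 0.10 (padj = 5.2e-04). In TPM, Hmox2 was thus the more abundant of the pair in each library.

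Hmox1 is also strongly expressed by red pulp macrophages, the spleen cells that clear old erythrocytes, so their markers were read in the same libraries. The 11 macrophage markers summed to 341.3 to 373.1 TPM in young TOM+, 437.2 to 480.9 TPM in young TOM- and 260.8 to 320.1 TPM in adult libraries, the same order of groups as for Hmox1. The means of 8 markers followed this order, and those of Vcam1, Cd5l and Cd163 did not. Slc40a1, the iron exporter ferroportin, was at 5.1 to 6.68, 10.2 to 10.7 and 0.94 to 2.64 TPM. Spic, the transcription factor these macrophages need, was at 41.9 to 47.8, 52.3 to 81.6 and 23.3 to 31.8 TPM. Cd163, the hemoglobin scavenger receptor, had another order, with 3.48 to 5.01, 2.13 to 2.46 and 0.57 to 0.98 TPM. Vcam1, an adhesion molecule, had means of 8.86, 12.9 and 13.6 TPM, and Cd5l, a protein made by macrophages, had 0.0933, 0.153 and 0.377 TPM. Against adults, 3 of the 11 markers were higher and 1 lower in young TOM+, and 8 were higher in young TOM-. Shares over all genes were 21.0% higher and 19.5% lower for TOM+, and 19.4% and 16.9% for TOM-. The gate kept autofluorescence-negative CD11b+ cells, and whether red pulp macrophages passed it was not measured here. The part of macrophage RNA in the Hmox1 values was not tested.

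**Figure D4:**
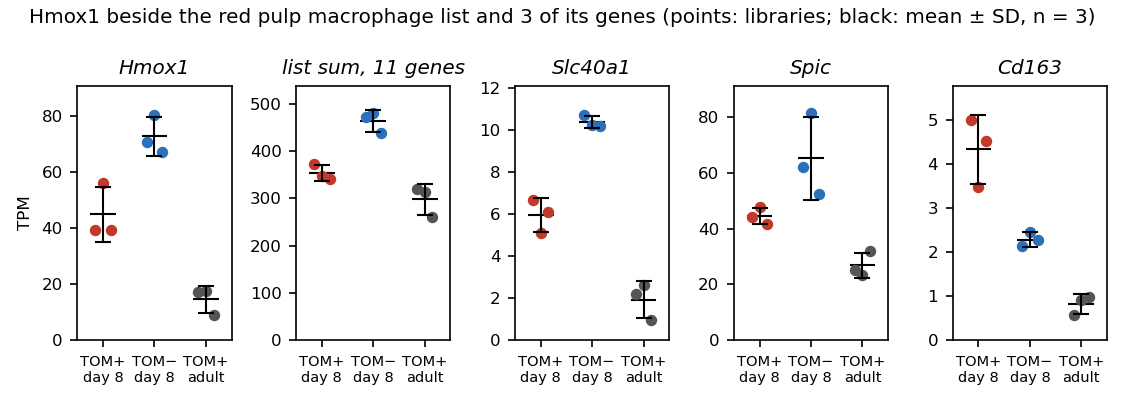
TPM per library (points) and mean ± SD of 3 libraries (black) for Hmox1, for the sum of the 11 red pulp macrophage markers and for Slc40a1, Spic and Cd163. Hmox1, the sum, Slc40a1 and Spic are highest in young TOM- DC2 and lowest in adults, and Cd163 is highest in young TOM+ cDC2.

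Of the quinone reductases, Nqo2 (chr13:33964655-33988465) was at 11.3 to 11.9, 9.23 to 11.6 and 6.27 to 9.18 TPM. It passed for TOM+ (log2FC 0.48 ± 0.15, padj = 0.020) and not for TOM- (0.34 ± 0.15, padj = 0.096). The first call was lost without TOM+ replicate 3 (padj = 0.062) or adult replicate 3 (padj = 0.072), and the second value passed without adult replicate 2 (padj = 0.021) and in limma on log2(TPM + 1) (padj = 0.037). Nqo1 had 7, 2 and 4 reads in young TOM+, 2, 6 and 3 reads in young TOM- and 1, 0 and 0 reads in adult libraries. Its difference did not pass (padj = 0.074 and 0.099), although it did in limma on log2(TPM + 0.1) (padj = 0.036 in both comparisons) and, for TOM+, without adult replicate 1 (padj = 0.049).

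Among the superoxide dismutases and catalase, the mitochondrial Sod2 (chr17:13007839-13018119) was at 33.0, 29.6 and 31.4 TPM in young TOM+, 31.8, 32.5 and 30.1 TPM in young TOM- and 22.6, 23.4 and 23.8 TPM in adults. Its log2FC was 0.28 ± 0.08 (padj = 0.013) and 0.28 ± 0.08 (padj = 0.016). These calls were lost without TOM+ replicate 3 (padj = 0.07) and without TOM- replicate 2 (padj = 0.064), respectively, and the second also in the fit of those 2 groups alone (padj = 0.051). Cytosolic Sod1 ranged over 134 to 145, 120 to 136 and 118 to 122 TPM, and its log2FC was -0.01 ± 0.10 (padj = 0.96) and -0.17 ± 0.10 (padj = 0.21). For TOM+ this is the only listed gene whose order in TPM and in normalized counts differed by more than 1 SD, and limma on log2(TPM + 1) gave 0.20 (padj = 0.025).

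Cat (chr2:103453904-103485153), which encodes catalase of the peroxisome, was at 167.2, 132.6 and 150.9 TPM in young TOM+, 194.7, 148.9 and 171.7 TPM in young TOM- and 166.1, 213.7 and 156.6 TPM in adults. The groups overlapped in TPM. Its log2FC was -0.39 ± 0.13 (padj = 0.030) for TOM+ and -0.23 ± 0.13 (padj = 0.19) for TOM-. The first call was lost without TOM+ replicate 2 (padj = 0.11), without adult replicate 2 (padj = 0.14) with scaling by library size alone (padj = 0.25) and in limma at either pseudocount (padj = 0.20).

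Nfe2l2 (chr2:75675513-75704663), which encodes NRF2, was among the most abundant of the listed transcripts, at 260.3, 290 and 337 TPM in young TOM+, 270, 315 and 347 TPM in young TOM- and 320.5, 309.6 and 424 TPM in adult libraries. The groups overlapped, with a log2FC of -0.36 ± 0.15 (padj = 0.072) and -0.32 ± 0.15 (padj = 0.11). With the young libraries paired by number, both passed on the lower side, at -0.38 (padj = 0.0054) and -0.34 (padj = 0.011). DESeq2 gave padj = 0.032 for TOM+ and a stricter filter on low counts 0.048, and leaving out TOM+ replicate 3 (padj = 0.03) or TOM- replicate 1 (padj = 0.04) also let it pass. Keap1 was at 28.8 to 31.3, 24.6 to 30.9 and 24.9 to 27.0 TPM, with padj of 0.20 and 0.80.

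Grouped in other ways, the listed genes gave uneven counts. Of the 5 selenoproteins among them (Gpx1, Gpx3, Gpx4, Txnrd1, Txnrd2), 0 passed in any comparison. Of the 4 mitochondrial genes, Txn2 and Sod2 were higher in both young groups and Prdx3 and Txnrd2 did not pass. Of 10 textbook NRF2 targets, 5 were higher in young than in adult TOM+ cDC2 (Hmox1, Gclm, Prdx1, Gsr, Gstp1) and 0 lower, and for young TOM- DC2 these counts were 4 and 0. Of all genes tested, 21.0% were higher and 19.5% lower for TOM+, and 19.4% and 16.9% for TOM-. The median log2FC of the 10 was 0.48 and 0.36, beside 0.05 and 0.07 for all genes. The other targets, Nqo1, Gclc, Srxn1, Txnrd1 and Gstm1, did not pass.

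The second question was whether the listed genes differ with TOMATO at the same age. Between young TOM+ cDC2 and young TOM- DC2, 0 of the 37 genes were higher, beside 0.125% of all genes tested, and 0 were lower, beside 1.47%. In edgeR, 4 of the 37 genes had an unadjusted p under 0.05, beside 1355 of all 14452 genes, which is about the same share, and DESeq2 called 0. The median log2FC was -0.03 over the listed genes and 0.00 over all genes. These fits did not pair the young libraries, and the edgeR fit that paired them by number also passed 0 of the 37. A p that misses the threshold does not show that the groups are alike.

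The 4 genes, given here as values and not as differences, were Hmox1, Mgst2, Srxn1 and Gstp1. Hmox1 had a mean of 44.9 ± 9.72 TPM in TOM+ and 72.8 ± 6.89 TPM in TOM-, with a log2FC of -0.67 ± 0.22 (padj = 0.25), and pairing by number gave -0.69 (padj = 0.059). In this comparison Cd163 was the macrophage marker that passed, and it was higher in TOM+ (log2FC 0.95, padj = 0.026). Mgst2 had a log2FC of -1.97 ± 0.58 (padj = 0.16), with at most 9 reads in a TOM+ library, and it passed in limma on log2(TPM + 1) (padj = 0.011). Srxn1 had -0.83 ± 0.36 (padj = 0.48). Gstp1 was the only one of the 4 with the higher level in TOM+, at 0.24 ± 0.10 (padj = 0.42).

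For the abundant enzymes the young groups lay close together. The log2FC between them was 0.02 ± 0.10 for Gpx1, 0.02 ± 0.12 for Prdx1, 0.12 ± 0.16 for Prdx4 and 0.07 ± 0.11 for Txn1. Gclm gave -0.04, Gsr 0.04, Hmox2 0.03 and Sod2 0.00. The lower values in TOM+ of Txnrd1 (-0.30 ± 0.16, padj = 0.66), Gpx4 (-0.22 ± 0.12, padj = 0.66) and Gclc (-0.14 ± 0.09, padj = 0.71) did not pass.

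**Figure D5:**
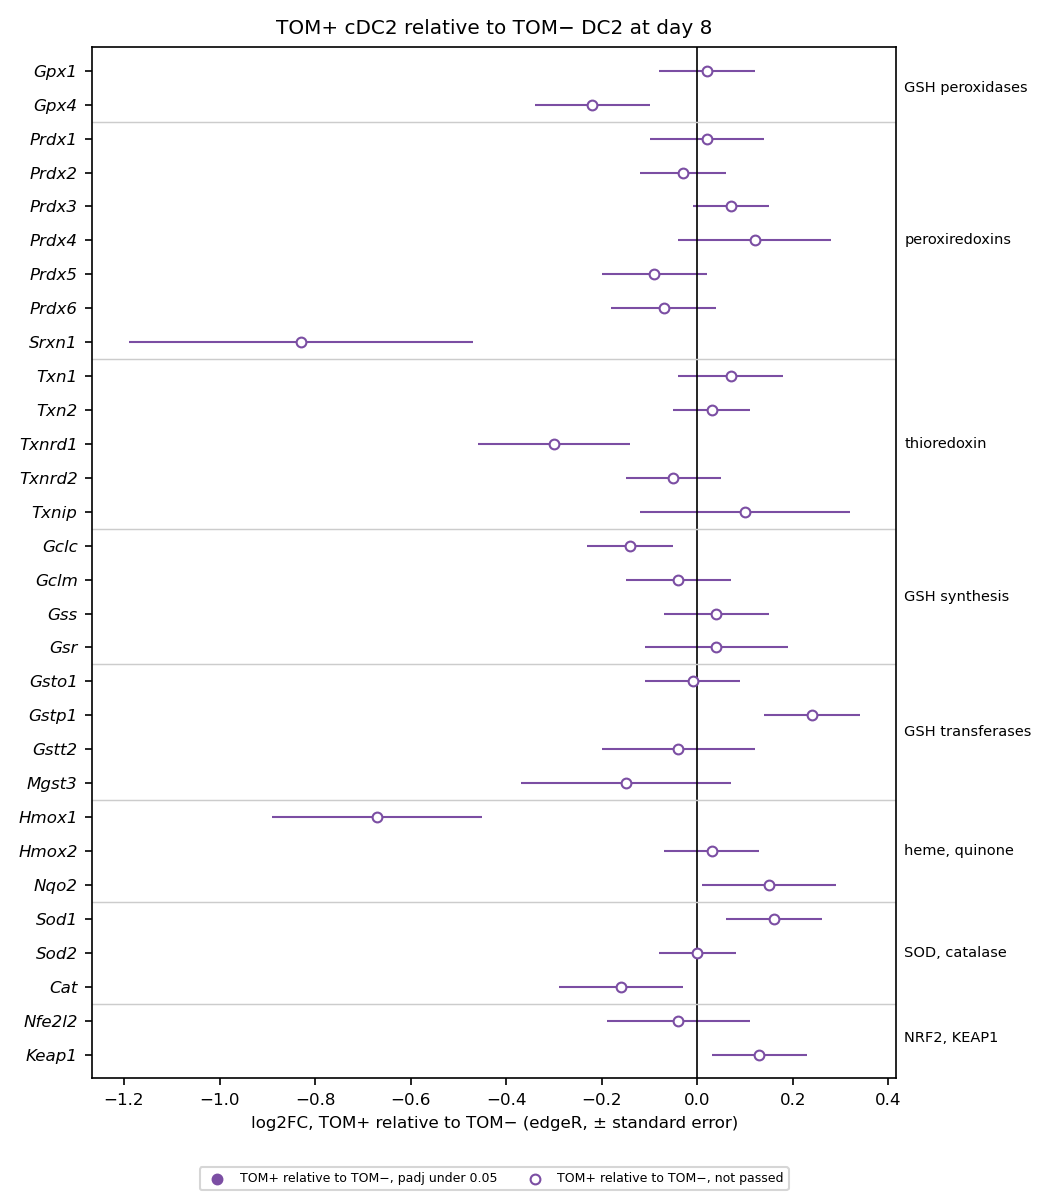
log2FC ± standard error of young TOM+ cDC2 against young TOM- DC2 for the 30 listed genes averaging 50 or more reads, ordered by role. No point is filled, since none of these genes had a padj under 0.05, and Srxn1 (-0.83) and Hmox1 (-0.67) lie farthest from 0.

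Other genes of the same pathways were read from lists of genes outside the 37. The counts of this list and the lists below stand beside shares over all genes tested. These were 21.0% higher and 19.5% lower for TOM+ against adults, and 19.4% and 16.9% for TOM-. Of 26 other glutathione genes tested, 3 were higher and 2 lower in young than in adult TOM+ cDC2 (median log2FC 0.09), and 5 and 2 for young TOM- DC2 (median 0.20). Glrx, the cytosolic glutaredoxin, was at 320 ± 8.23, 315 ± 26.0 and 176 ± 2.44 TPM, with a log2FC of 0.77 ± 0.09 (padj = 3.8e-05) and 0.70 ± 0.09 (padj = 9.9e-05). Glrx3 was higher for TOM+ (0.60 ± 0.17, padj = 0.016) and the prostaglandin D synthase Hpgds for TOM- (0.49 ± 0.14, padj = 0.017). The lower genes were Ggt5, a gamma-glutamyl transferase that cleaves glutathione conjugates outside the cell (log2FC -1.28 ± 0.15 and -1.18 ± 0.15), and Slc3a2, the heavy chain of the cystine importer (-0.85 ± 0.14 and -0.60 ± 0.14). Slc7a11, the light chain of that importer, did not pass (0.16 ± 0.18, padj = 0.51, and 0.36 ± 0.18, padj = 0.13). With scaling by library size alone the counts were 6 and 2 for TOM+ and 10 and 2 for TOM-.

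Enzymes that supply NADPH gave 5 higher and 1 lower of 11 for TOM+ (median log2FC 0.40), and 6 and 1 for TOM- (median 0.58). Nnt, the mitochondrial transhydrogenase, had a log2FC of 0.90 ± 0.19 beside both groups (padj = 0.0022 and 0.0025). G6pdx, the first enzyme of the pentose phosphate pathway, was at 150.4, 118.2 and 118.7 TPM in young TOM+, 144.5, 132.5 and 119.8 TPM in young TOM- and 71.0, 79.0 and 63.4 TPM in adults, with 0.71 ± 0.11 in each comparison (padj = 2.2e-04 and 2.6e-04). Mthfd1, of folate metabolism, had 0.75 ± 0.09 (padj = 5.3e-05) for TOM+. The lower gene was the NAD kinase Nadk, at -0.41 ± 0.09 (padj = 0.0041) and -0.52 ± 0.09 (padj = 0.0011).

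Of 22 other thiol redox genes, 3 were higher and 5 lower for TOM+, and 3 and 4 for TOM-, which scaling by library size alone turned to 10 and 4, and to 11 and 3. Txndc5, a disulfide isomerase of the endoplasmic reticulum, had the largest rise in both comparisons among those averaging 50 or more reads (0.91 ± 0.08, padj = 5.1e-06, and 0.69 ± 0.08, padj = 5.2e-05). Msrb1, a methionine sulfoxide reductase, passed for TOM+ (0.77 ± 0.28, padj = 0.046). Selenoprotein P, listed as Sepp1, was the gene of all these lists that passed between the young groups (-0.43 ± 0.09, padj = 0.026), and it was higher in young TOM- than in adults (0.47 ± 0.09, padj = 0.0013). All 3 sestrins, stress-response proteins that restrain mTORC1, were lower in young cells. Their log2FC for TOM+ were -1.38 ± 0.16 (Sesn3), -0.88 ± 0.14 (Sesn1) and -0.79 ± 0.15 (Sesn2), and for TOM- they were -1.14 ± 0.16, -0.56 ± 0.14 and -0.81 ± 0.15.

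Of 22 NRF2 partners and further NRF2 targets tested, 4 were higher and 4 lower beside each young group, and scaling by library size alone gave 8 and 2 for TOM+ and 8 and 3 for TOM-. Blvra, the biliverdin reductase that acts after heme oxygenase, was higher (0.35 ± 0.08, padj = 0.0047, and 0.34 ± 0.08, padj = 0.0072). The ferritin light chain Ftl1 was higher for TOM- (0.38 ± 0.09, padj = 0.0058), while the heavy chain Fth1 was lower beside both groups (-0.49 ± 0.07, padj = 1.4e-04, and -0.43 ± 0.07, padj = 4.0e-04). Maff, a small MAF protein that pairs with NRF2, was lower as well (-0.88 ± 0.20, padj = 0.0036, and -0.78 ± 0.20, padj = 0.0083). So was Mafk, another small MAF protein (-0.46 ± 0.14, padj = 0.021, and -0.60 ± 0.14, padj = 0.0051).

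The NADPH oxidase makes superoxide. Of 7 of its genes tested, 4 were lower and 0 higher in young TOM+ (median log2FC -0.33), and 3 lower and 1 higher in young TOM- (median -0.31). Ncf1, the p47phox subunit, was at 192 ± 10.1, 216 ± 14.6 and 357 ± 42.5 TPM, with a log2FC of -1.02 ± 0.09 (padj = 5.3e-06) and -0.88 ± 0.09 (padj = 2.0e-05). Ncf4, the p40phox subunit, had -0.43 ± 0.07 and -0.37 ± 0.07, and Cybb, the catalytic subunit, had -0.33 ± 0.10 and -0.37 ± 0.10. Rac2, a GTPase that activates the oxidase, was higher in young TOM- (0.38 ± 0.08, padj = 0.0032). With scaling by library size alone the counts were 2 lower and 1 higher for TOM+, and they turned to 1 lower and 2 higher for TOM-.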

How the data were processed

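RNA-seq libraries of sorted DC2 (SMART-seq v4 cDNA, single-end reads) were grouped by the labels' cell type and age, and replicates were numbered in accession order. The authors mapped reads to mm10 with STAR and deposited its read counts per gene, not normalized and without strand. With RSEM the authors deposited expected counts, TPM (relative to each library's total) and FPKM, which was not used here. Tool versions and the annotation release are not given in the sources used here.

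The gene list, the pathway and marker lists and the rule for genes named were chosen with earlier results of these data known. By that rule, values per library are given for genes past 2-fold and for the most abundant and the most changed genes of each role. From each pathway list the 2 largest rises and falls that passed, averaging 50 or more reads, are named, most without values per library. Adgre1 and the selenoproteins Selenow, Selenot, Selenos, Selenok and Selenop were matched by older symbols, and Ahsp, Ly6g and Trac were not analysed.

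Counts were tested in R 4.3.3 with edgeR 4.0.16 (quasi-likelihood test, TMM, Benjamini-Hochberg adjustment over all genes), on all 9 libraries in 3 groups and on 14452 genes averaging 1 or more reads, which include all 37. Standard errors are the log2FC divided by the root of F. The steps were tested on simulated data with few changed genes, balanced in direction, so that test does not cover the scaling. The 11 alternatives included DESeq2 1.42.0, limma 3.58.1 on log2(TPM + 1) and log2(TPM + 0.1), RSEM counts rounded to whole numbers, other scalings and filters, and replicate blocks, and each library was left out in turn. Tables and plots were made in Python 3.11.15. Locations and promoters are RefSeq's (GRCm38.p6).

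Between 26.1% and 31.6% of reads were on no gene, and took no part. No libraries were copies (lowest chi-square per gene 9.181, where counting noise gives about 1). TMM factors were 1.025 to 1.085 in young and 0.894 to 0.928 in adult libraries. Deposited names carry the number 81, 91, 92 or 95. Over 10112 genes, deviations from the group mean correlated at 0.75, 0.50 and 0.52 between young TOM+ and TOM- libraries of the same number. Between those of different numbers they correlated at -0.52 to 0.16. This pairing, taken from the data, entered only the alternative fits with a replicate block, and the main fit had no block. With adults the same number gave -0.00 to 0.16. Adults were blocked by number only in the alternative fit with the block on all 9 libraries. Young spleens were pooled and nothing says that libraries came from separate animals, so p-values measure the spread between these samples, which may be technical. No molecular identifiers are described, so reads are not counts of molecules.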

Additional observations from a re-analysis of the deposited data

How the results depend on the processing

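Of 33 differences against adults that passed, 659 values under the alternatives and left-out libraries were computed. Of these, 608 kept call and direction and 51 lost the call. None of these 33 changed sign. Of 78 differences that did not pass, 55 of 1523 values passed and 138 changed sign. Kept under every alternative and left-out library were 10 of 14 higher genes and Hmox2 for TOM+ against adults, and 9 of 13 higher genes and Hmox2 for TOM-. For TOM+ the higher genes were Prdx1, Prdx2, Prdx4, Txn1, Gclm, Gss, Gsr, Gstp1, Mgst3 and Hmox1.

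The count of lower genes for TOM+ against adults, 3, became 1 with scaling by library size alone and with limma on TPM at either pseudocount, 6 with the replicate block on young libraries and 5 with the block on all 9. That for TOM-, also 3, became 1 with library size alone and with limma. The count of higher genes for TOM-, 13, became 21 with library size alone. Between the young groups the count of lower genes, 0, became 1 with limma on log2(TPM + 1) and 4 with the block on all 9 (Hmox1, Txnrd1, Srxn1, Mgst2). The block on all 9 takes in adult numbers, on which adults did not pair with young libraries. Limma on log2(TPM + 1) added Prdx3, Prdx5 and Sod1 to the higher genes for TOM+, and Gpx4, Prdx3, Prdx5, Gstp1 and Nqo2 for TOM-. Between the young groups, the block on young libraries passed 0 of the listed genes. That block changed no call beyond those given with the genes. The causes were not tested. With a library left out, counts ranged over 11 to 14 higher and 1 to 5 lower genes for TOM+, 9 to 13 and 1 to 3 for TOM-, and 0 to 0 between the young groups. All genes passing between the young groups numbered 231, and 405 with the young block, 949 with the block on all 9 and 369 in DESeq2.

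With 3 libraries a group, 7 genes under an average of 50 reads and no adult TOM- cells, small differences could not be detected and age and TOMATO cannot be told apart for TOM-.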
